A study of Mus musculus with 6 samples.

Results

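The genes described here are 6 that are used to recognise regulatory or anergic CD4 T cells in mice: Foxp3, Gpr83, Izumo1r, Nrp1, Itgae and Lrrc32. Their members are all probe sets, groups of short oligonucleotides on the array that read the same transcript, which the array annotation maps to exactly 1 of these symbols. That rule found 10 of the 45101 probe sets in the deposited table: 1 for Foxp3, 2 for Gpr83, 1 for Izumo1r, 4 for Nrp1 and 2 for Itgae. They read 5 of the 18193 genes that a probe set reads alone. No probe set was found for Lrrc32, which was not analysed here. All 10 passed the filter on dim signals. The label calls the set surface genes, which holds for all but Foxp3, a nuclear factor.

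The arrays compared 3 samples of CTLA-4 KO T cells with 3 samples of wild type T cells. Both kinds of donor carried the 5C.C7 transgenic T cell receptor, lacked RAG2 and bore the CD45.1 marker, and only the CTLA-4 KO donors were also CTLA-4-/-. Donor T cells were put into B10.A mice, the recipients were immunized with MCC peptide and LPS, and cells were sorted 4 days later for total RNA. The sources used here give neither the age of the animals nor the gate of the sort, and the titles call the samples biological replicates without naming animals or pools. The donors are full knockouts, so CTLA-4 was missing before transfer as well as after it, and the recipients kept their own T cells. Ctla4 read 812, 791 and 784 in CTLA-4 KO, against 5332, 4787 and 4587 in wild type.

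Regulatory T cells are CD4 T cells that restrain other T cells, and Foxp3 is the transcription factor that fixes their identity. Anergic T cells have met antigen without full costimulation and respond poorly to it afterwards. In mice both kinds carry high levels of the folate receptor FR4, the product of Izumo1r, and neuropilin-1, the product of Nrp1, is found on regulatory cells that arise in the thymus and on some activated or tolerised cells. CTLA-4 is itself abundant on regulatory T cells and is induced on conventional T cells after activation, where it competes with CD28 for CD80 and CD86. T cells from receptor-transgenic mice without RAG usually include few Foxp3+ cells.

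Values are linear intensities on a scale set by the authors. Each difference subtracts wild type from CTLA-4 KO on the log2(intensity + 16) scale, with the standard error (SE) from limma, and a gene was called when the Benjamini-Hochberg adjusted p over all 27022 tested probe sets was under 0.05. Each group has 3 arrays, and their number limits the precision. Among the 10 member probe sets 4 were called, all lower in CTLA-4 KO, against 0.470% of all tested probe sets called lower and 1.25% called in either direction. The genotypes did not overlap for 7 of the 10, all lower in CTLA-4 KO, against 11.5% of all tested probe sets. The called probe sets were both of Gpr83, the 1 of Izumo1r and 1 of Nrp1. Same-numbered arrays behaved as pairs, and with the replicate number as a block 7 of 10 were called lower, against 4.80% of all tested probe sets called lower and 8.66% in either direction. The members were proposed with results of these arrays known, so these counts describe them and support nothing by themselves. In cell mixtures such as these, fewer cells with a transcript and less transcript per cell cannot be told apart.

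**Figure D1:**
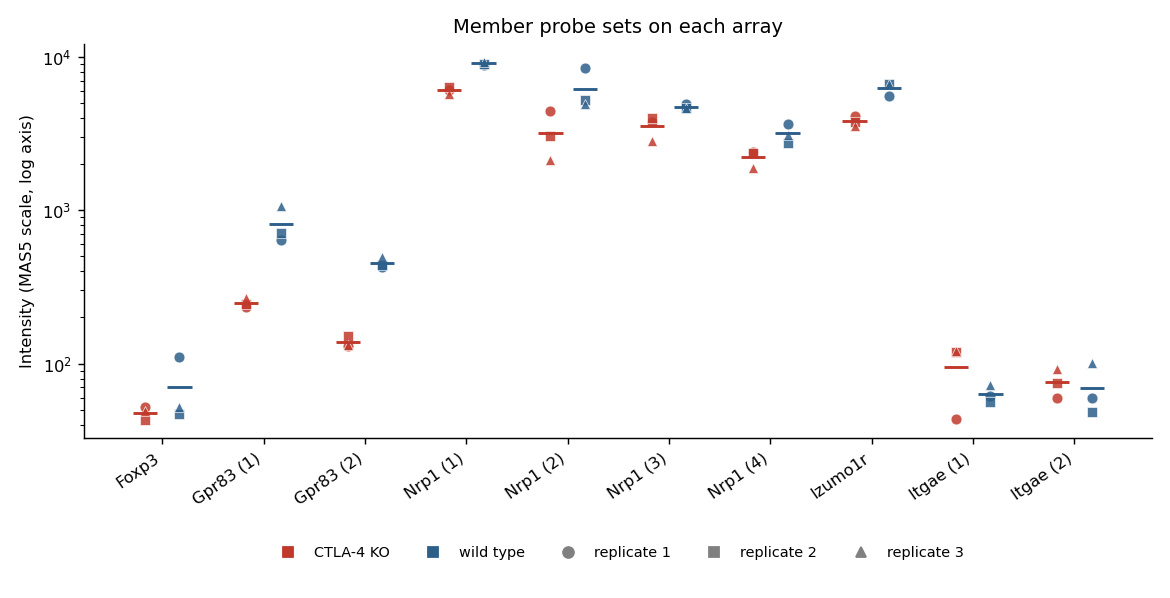
Intensity (log axis) of the 10 member probe sets on each array, with CTLA-4 KO in red on the left and wild type in blue on the right of each probe set; symbols mark replicates, bars the means of 3 arrays, and numbers in brackets order the probe sets of a gene by mean intensity. Both Gpr83, all 4 Nrp1 and the Izumo1r probe sets lie lower in CTLA-4 KO without overlap, while Foxp3 and Itgae overlap near the dim end.

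Foxp3, on chromosome X, was dim in both genotypes. Its probe set, which reads several transcript forms of the gene, had 52.2, 42.8 and 48.8 in CTLA-4 KO, against 111, 47.0 and 52.1 in wild type. Only wild type replicate 1 stood above the rest, and the other 5 arrays lay close to each other and not far above the filter floor of 35.4. On the log2 scale CTLA-4 KO differed by −0.36 ± 0.30 (± SE, with limma adjusted p = 0.622), with a 95% interval of −1.03 to 0.32. Without wild type replicate 1 it was −0.04. A difference in Foxp3 was not detectable with these arrays, whose interval spans both directions.

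Gpr83 encodes a G protein-coupled receptor enriched on regulatory T cells, for which the neuropeptide PEN has been described as a ligand. Of the members it differed most. Its brighter probe set had 233, 244 and 266 in CTLA-4 KO, against 641, 714 and 1072 in wild type. The CTLA-4 KO arrays were tight, at 248 ± 16.9 (SD, n = 3), and the wild type arrays spread more, at 809 ± 231, with replicate 3 highest. The log2 difference was −1.61 ± 0.19 (limma adjusted p = 0.00537), which left 30.6% of the wild type mean. The other probe set had 131, 151 and 133 in CTLA-4 KO, against 429, 442 and 495 in wild type. It gave a log2 difference of −1.61 ± 0.16 (limma adjusted p = 0.00193) and 30.4% of the wild type mean. Both probe sets thus placed the receptor transcript at the same share of wild type, and neither lost its call when any 1 array was left out.

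Izumo1r encodes FR4, a folate receptor family protein that T cells display and that eggs use as JUNO, the receptor for the sperm protein IZUMO1. Its probe set had 4134, 3757 and 3545 in CTLA-4 KO, against 5521, 6687 and 6668 in wild type. All CTLA-4 KO arrays lay below the lowest wild type array, and wild type replicate 1 was nearest to them. The log2 difference was −0.72 ± 0.11 (limma adjusted p = 0.015), which left 60.6% of the wild type mean. The call was lost without CTLA-4 KO replicate 2 (adjusted p = 0.0784), wild type replicate 2 (0.0533) or wild type replicate 3 (0.0588), at log2 differences of −0.71, −0.67 and −0.67. The name of this probe set marks it as one that may read more than 1 transcript, and no other probe set of the gene was found to set beside it.

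Nrp1 encodes neuropilin-1, a co-receptor for class 3 semaphorins and VEGF that also binds TGF-beta and semaphorin-4A. Its brightest probe set had 6074, 6394 and 5725 in CTLA-4 KO, against 8907, 9014 and 9277 in wild type. The spread within each genotype was small beside the gap between them. The log2 difference was −0.58 ± 0.08 (limma adjusted p = 0.0128), which left 66.9% of the wild type mean. Without wild type replicate 3 the adjusted p was 0.0508, and under median centring, where each array was set to a common median, it was 0.0527 at −0.49.

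The other 3 probe sets of Nrp1 also had lower values in CTLA-4 KO and missed the threshold without the block. The second had 4472, 3028 and 2142 in CTLA-4 KO, against 8510, 5244 and 4906 in wild type. In both genotypes replicate 1 was high and replicate 3 low, so the wide spread ran along the replicate numbers. Its log2 difference was −0.97 ± 0.26 (limma adjusted p = 0.104), and with the block the adjusted p was 0.000131. The third had 3788, 4017 and 2840 in CTLA-4 KO, against 4918, 4611 and 4619 in wild type, a log2 difference of −0.42 ± 0.13 (limma adjusted p = 0.145, and 0.0233 with the block). The fourth had 2393, 2367 and 1893 in CTLA-4 KO, against 3670, 2753 and 3085 in wild type, a log2 difference of −0.51 ± 0.14 (limma adjusted p = 0.103, and 0.0112 with the block). No array of CTLA-4 KO reached a wild type array on any of the 4 probe sets, and CTLA-4 KO kept between 51.7% and 75.2% of the wild type mean.

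Itgae, on chromosome 11, encodes the alpha chain of the integrin CD103, which pairs with the beta-7 chain, binds E-cadherin on epithelial cells and is induced by TGF-beta. Its brighter probe set had 43.9, 119 and 121 in CTLA-4 KO, against 61.1, 56.4 and 72.1 in wild type. CTLA-4 KO replicates 2 and 3 stood above every wild type array and replicate 1 below, so the genotypes overlapped. The log2 difference was 0.39 ± 0.33 (limma adjusted p = 0.613), and without CTLA-4 KO replicate 1 it was 0.78 (0.17). The other probe set had 59.6, 74.9 and 92.6 in CTLA-4 KO, against 59.8, 48.1 and 102 in wild type, with a difference of 0.13 ± 0.28 (0.872). The sign of this second difference changed between settings, with a range of −0.25 to 0.38. Both probe sets were dim, and a change of Itgae was not detectable with these arrays.

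**Figure D2:**
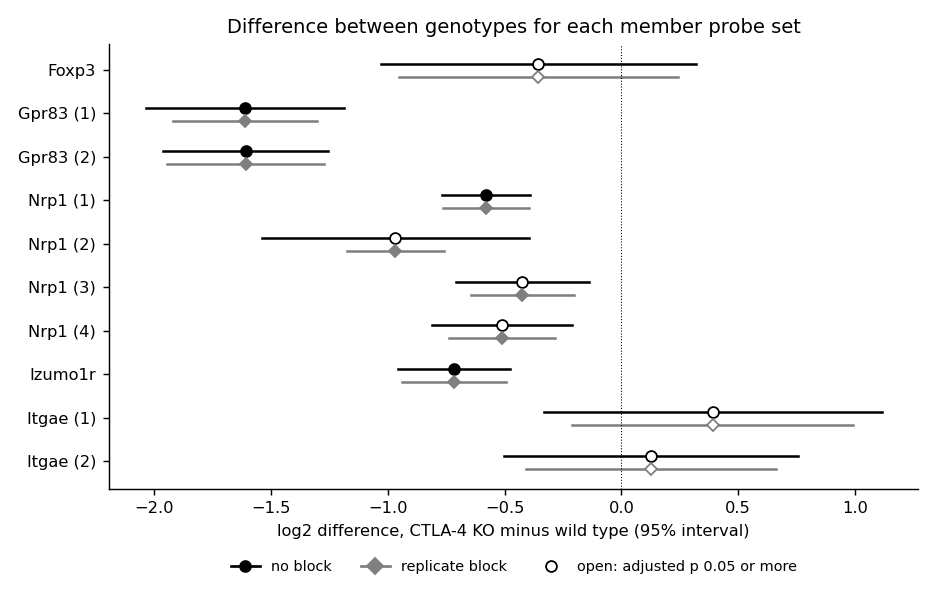
Log2 difference, CTLA-4 KO minus wild type, for each member probe set with its 95% interval, without a block (black) and with the replicate block (grey); filled symbols have an adjusted p under 0.05. Without the block 4 probe sets of Gpr83, Nrp1 and Izumo1r are filled and with it 7, and the intervals of Foxp3 and Itgae span 0 in both fits.

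Within the replicate pairs, 8 of 10 member probe sets had lower values in CTLA-4 KO in all 3 pairs, a pattern shown by 25.9% of all tested probe sets. The brighter Gpr83 probe set differed by −1.40, −1.49 and −1.95 in pairs 1, 2 and 3. Izumo1r differed by −0.42, −0.83 and −0.91, and the brightest Nrp1 probe set by −0.55, −0.49 and −0.69. Foxp3 differed by −0.89, −0.10 and −0.07, so its mean rests on pair 1. Of the 8 probe sets, 7 had their greatest difference in pair 3, all but Foxp3. Over all tested probe sets that were lower in all pairs, 33.9% had it in pair 3, and over all those called lower 48.0%. The 7 member probe sets read only Gpr83, Izumo1r and Nrp1, so they are not independent of each other. The donors of pair 2 appear female, with Xist at 12599 in CTLA-4 KO replicate 2 and 14608 in wild type replicate 2 and at most 107 elsewhere.

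**Figure D3:**
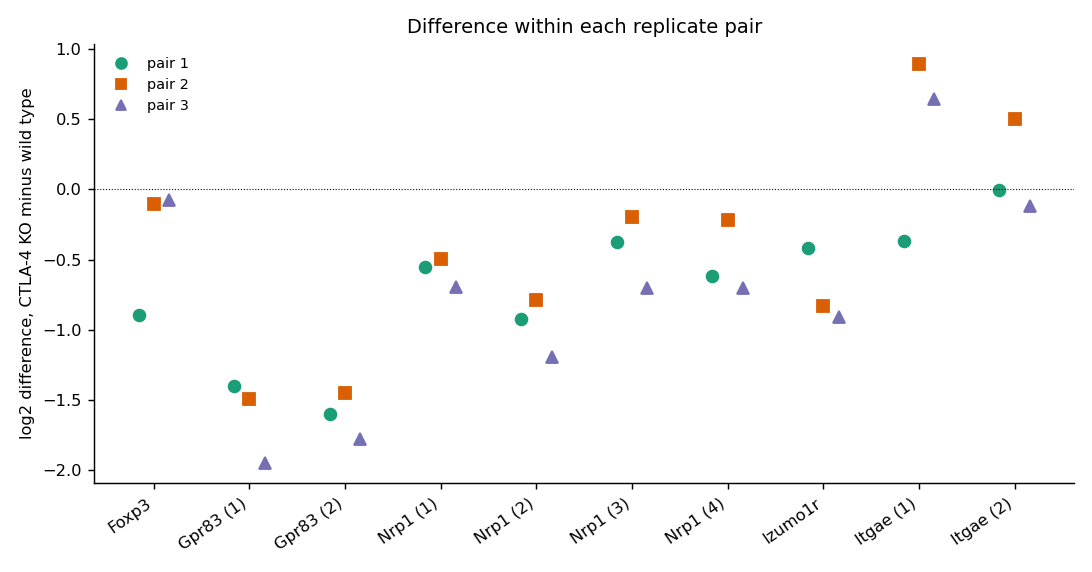
Log2 difference between same-numbered arrays, CTLA-4 KO minus wild type, for the 10 member probe sets in pairs 1, 2 and 3. For Gpr83, Nrp1 and Izumo1r every pair lies below 0 and pair 3 lowest, whereas Itgae takes both signs.

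The ratio of 5' to 3' signal of Actb, a measure of RNA integrity, was 0.567, 0.691 and 0.544 in CTLA-4 KO, against 0.418, 0.41 and 0.584 in wild type. With this ratio as a term the log2 difference was −1.93 for the brighter Gpr83 probe set (limma adjusted p = 0.0272), −1.76 for the other (0.0342), −0.78 for Izumo1r (0.155) and −0.65 for the brightest Nrp1 probe set (0.117). For these probe sets the differences were as large with the term as without it, and the last 2 were no longer called. The other Nrp1 probe sets, from bright to dim, had −0.79, −0.52 and −0.56 with it, against −0.97, −0.42 and −0.51 without it. Foxp3 went from −0.36 to −0.12, and the Itgae probe sets from 0.39 to 0.13 and from 0.13 to −0.25. The fit with the Actb ratio called 22 probe sets in all, against 339 without the term. With the same ratio of Gapdh instead, Gpr83 had −1.70 and −1.64, Izumo1r −0.72 and the brightest Nrp1 probe set −0.59. The part of RNA integrity in these differences was not tested.

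Gpr83 and Izumo1r lie next to each other on mouse chromosome 9, with no protein-coding gene between them in RefSeq, on opposite strands and transcribed towards each other. Since both fell, the 5 protein-coding genes on either side were examined. Of these 10 genes 6 passed the filter and none was called. Mre11a, a subunit of a DNA double-strand break repair complex and the next gene on the side of Gpr83, had 717 ± 30.3 in CTLA-4 KO and 720 ± 5.68 in wild type (limma adjusted p = 0.987). Panx1, a membrane channel and the next gene on the side of Izumo1r, had 2420 ± 350 in CTLA-4 KO and 2070 ± 258 in wild type, a log2 difference of 0.22 with a 95% interval of −0.09 to 0.53 (limma adjusted p = 0.486). Med17, a Mediator subunit, differed by 0.03 with an interval of −0.21 to 0.26. Ankrd49, Fut4 and 4931406C07Rik had differences of −0.18, 0.43 and −0.02, none with an unadjusted p under 0.05.

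**Figure D4:**
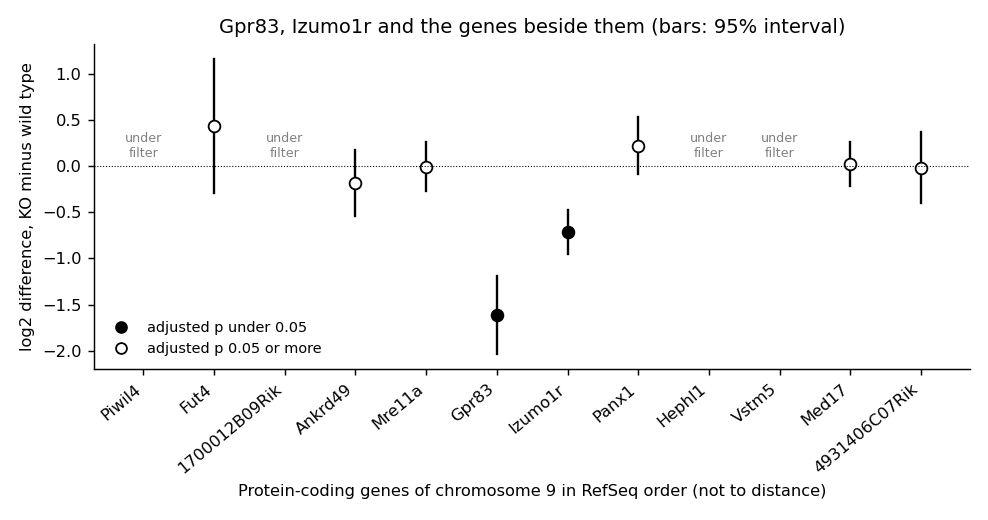
Log2 difference, CTLA-4 KO minus wild type, with its 95% interval for Gpr83, Izumo1r and the 5 protein-coding genes on each side, in RefSeq order on chromosome 9. The filled points are Gpr83 at −1.61 and Izumo1r at −0.72, and the 6 measured neighbours span 0.

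The promoters of the 3 called genes are shown because these genes fell together and 2 of them are neighbours. Each stretch holds the 250 bases before the RefSeq transcription start in GRCm38.p6, from chr9:14859960-14860209 (+ strand) for Gpr83, chr9:14903768-14904017 (- strand) for Izumo1r and chr8:128358823-128359072 (+ strand) for Nrp1. Each is read 5′ to 3′ along the gene, and capitals mark CpG dinucleotides.
Gpr83: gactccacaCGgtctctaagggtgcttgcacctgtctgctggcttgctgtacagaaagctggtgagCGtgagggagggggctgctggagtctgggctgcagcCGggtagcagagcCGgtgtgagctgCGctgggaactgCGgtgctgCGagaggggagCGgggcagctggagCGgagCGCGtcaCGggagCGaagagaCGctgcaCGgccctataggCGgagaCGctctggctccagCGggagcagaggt
Izumo1r: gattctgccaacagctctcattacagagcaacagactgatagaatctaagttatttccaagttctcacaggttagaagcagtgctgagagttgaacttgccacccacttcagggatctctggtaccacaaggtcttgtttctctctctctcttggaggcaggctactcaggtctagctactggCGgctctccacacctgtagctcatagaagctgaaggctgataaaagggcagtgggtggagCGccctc
Nrp1: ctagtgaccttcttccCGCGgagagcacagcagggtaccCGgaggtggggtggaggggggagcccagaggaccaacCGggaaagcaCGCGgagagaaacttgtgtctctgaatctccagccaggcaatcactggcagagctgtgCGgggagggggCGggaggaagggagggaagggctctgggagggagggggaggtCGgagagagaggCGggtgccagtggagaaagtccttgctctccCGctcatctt
The Gpr83 stretch had a GC content of 66.8% with 18 CpG, the Nrp1 stretch 64.4% with 11, and the Izumo1r stretch 50.0% with 2. Over 32851 RefSeq promoters in the table the median GC content was 52.4% and the median CpG count 6, so the neighbours Gpr83 and Izumo1r have unlike promoters by this measure. Windows of 300 bases, with 50 after the start added, were searched on both strands for TGTTTAC (forkhead), TGACTCA (AP-1), TGACGTCA (CRE) and GGAAAA (NFAT). None of these letters was found in the windows of the 3 genes, while 3.65%, 5.20%, 1.79% and 23.4% of all promoters hold them. The absence says only that these letters are not in these windows.

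The genes whose profile over the 6 arrays was most like that of each called member were found by the smallest root mean square difference of centred log2 values, 3 for each. For Gpr83 they were Ms4a4c (0.202), Chn2 (0.243) and Bach2 (0.269). For Izumo1r they were the helicase gene Ddx60 (0.0564), the phosphatase gene Ppm1j (0.0602) and Tceanc (0.0875). Ppm1j and Tceanc were not called (limma adjusted p = 0.118 and 0.122). For Nrp1 they were the sialyltransferase gene St8sia4 (0.0448), the exchange factor gene Rapgef6 (0.0617) and A930024E05Rik (0.0648). St8sia4 had 7455 in CTLA-4 KO and 11016 in wild type, a log2 difference of −0.56 (limma adjusted p = 0.015). For the dim Foxp3 they were Zfp811 (0.087), Mir155hg (0.0875) and Ttll3 (0.0949), and for Itgae Ndufb1 (0.0956), S100a3 (0.133) and Ccr2 (0.145), none of them called.

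Most other genes of the regulatory programme were not called. Over all 11990 genes, each read by its brightest probe set, 0.500% were called lower and 1.19% higher in CTLA-4 KO, 1.69% in all, and with the block 3.47% lower and 5.49% higher, while the median log2 difference was 0.00. Of 21 measured surface molecules of regulatory T cells 5 were called lower and none higher, with a median of −0.06: Ctla4, Gpr83, Izumo1r, Nrp1 and Il7r, the interleukin-7 receptor, which is typically low on regulatory cells. The members make up 3 of these 5, and Ctla4 is the gene knocked out in the CTLA-4 KO donors, so its fall was set by the design. With the replicate block 7 were called lower and 1 higher. Il7r had 1520, 1352 and 1424 in CTLA-4 KO, against 2179, 2725 and 4055 in wild type (log2 difference −1.01, limma adjusted p = 0.0352), and kept its call only in the fit without wild type replicate 1 among the 6 that left out an array (adjusted p of 0.0558 to 0.158 in the others). The other Il7r probe set had a difference of −1.05 and was not called (limma adjusted p = 0.115). The count of 5 was 3 without CTLA-4 KO replicate 2, 3 without wild type replicate 2 and 2 without wild type replicate 3. Il2ra, the high-affinity interleukin-2 receptor chain that marks regulatory T cells, was dim at 84.6, 41.5 and 88.5 in CTLA-4 KO, against 48.8, 88.6 and 44.9 in wild type. Its genotypes overlapped fully (limma adjusted p = 0.827).

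Of 16 measured transcription factors of regulatory T cells 1 was called lower, Bach2, a repressor that holds back effector differentiation, and none higher, with a median of −0.02. Bach2 had 1298, 1215 and 1135 in CTLA-4 KO, against 3213, 3424 and 3245 in wild type on its brightest probe set, a log2 difference of −1.43 ± 0.10 (limma adjusted p = 0.000295). Its other probe sets had differences of −1.17 (0.0112) and −0.56 (0.2). With the replicate block 1 factor was called higher, Prdm1, at a log2 difference of 0.90 (limma adjusted p = 0.114, and 0.0366 with the block). The block also called 3 factors lower. One of the 3 was Ikzf4, or Eos, a partner of Foxp3, with 343, 240 and 308 in CTLA-4 KO, against 548, 389 and 636 in wild type (log2 difference −0.78, limma adjusted p = 0.102, and 0.00522 with the block). Its second measured probe set had a difference of −0.74. The related Ikzf2, or Helios, had 10389, 11382 and 11918 in CTLA-4 KO, against 11351, 9823 and 11175 in wild type, with overlap (limma adjusted p = 0.803). Its other measured probe sets had differences of 0.25 and 0.52 (limma adjusted p = 0.646 and 0.556). Among 7 measured products of regulatory T cells Gzmb and Lgals1 were called higher and none lower. Gzmb, the cytotoxic protease granzyme B, had 121, 399 and 470 in CTLA-4 KO, against 6.02, 16.4 and 64.9 in wild type (limma adjusted p = 0.0288). Lgals1, the lectin galectin-1, had 19081 ± 407 in CTLA-4 KO and 13220 ± 1717 in wild type (limma adjusted p = 0.0298), and its other probe set also rose (0.0126). Gzmb and Lgals1 are also products of effector T cells, and that count was 1 without CTLA-4 KO replicate 1, wild type replicate 2 or wild type replicate 3 and 0 without any of the other 3 arrays.

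Of 21 measured anergy genes Izumo1r and Nrp1 were called lower and Dtx1 higher, with a median of −0.06. Dtx1, a Notch target that promotes anergy, had 7919, 7387 and 7726 in CTLA-4 KO, against 4697, 5213 and 4346 in wild type. It rose without overlap by 0.69 ± 0.10 on the log2 scale (limma adjusted p = 0.0107), opposite in sign to Izumo1r and Nrp1. Its other measured probe set, which was dimmer, had a difference of 0.35 and was not called (limma adjusted p = 0.563). The number called lower was 1 without CTLA-4 KO replicate 2 and 0 without wild type replicate 3, and the number called higher was 2 without wild type replicate 1. Nt5e encodes CD73, which together with FR4 marks anergic CD4 T cells. It had 2488, 1821 and 1238 in CTLA-4 KO, against 3537, 2099 and 1874 in wild type. In each pair CTLA-4 KO was lower, but replicate 1 was high in both genotypes and the groups overlapped (log2 difference −0.43, limma adjusted p = 0.478, and 0.0194 with the block). Cblb, whose product tags signalling proteins with ubiquitin and raises the threshold for activation, had 3511, 2640 and 3020 in CTLA-4 KO, against 5093, 3974 and 5216 in wild type (log2 difference −0.64, limma adjusted p = 0.055, and 0.00135 with the block). Its other measured probe sets had smaller differences of −0.36 and −0.25 (limma adjusted p = 0.158 and 0.362). With the block 4 anergy genes were called lower and 3 higher. Those called higher were Dtx1, Pdcd1 and Nr4a1. Pdcd1 had a log2 difference of 0.39 (limma adjusted p = 0.122, and 0.0212 with the block). Nr4a1 had 0.50 (limma adjusted p = 0.131, and 0.0104 with the block). The genotypes did not overlap for either.

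TGF-beta meets these genes at several points, since the product of Lrrc32 holds its latent form, Nrp1 binds it and Itgae responds to it. Of 19 measured genes of its pathway none was called by limma, 3 had an unadjusted p under 0.05, and with the block 1 was called lower and 1 higher. Over all 11990 genes 1989 had an unadjusted limma p under 0.05, so such counts in short lists mean little by themselves. Smad7, a feedback inhibitor induced by TGF-beta signals, had 688, 696 and 706 in CTLA-4 KO, against 1013, 998 and 1332 in wild type (log2 difference −0.65, limma adjusted p = 0.0535, and 0.00467 with the block). Tgfb3, a TGF-beta ligand, had 383, 388 and 262 in CTLA-4 KO, against 164, 239 and 136 in wild type (0.89, limma adjusted p = 0.0964, and 0.00593 with the block). The genotypes did not overlap for either. Tgfb1, the main ligand of T cells, had 490 ± 97.6 in CTLA-4 KO and 446 ± 104 in wild type, and the receptor gene Tgfbr2 had 10963 ± 768 in CTLA-4 KO and 11055 ± 757 in wild type (limma adjusted p = 0.798 and 0.964).

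No ligand or partner of the members was called without the block. Of 16 measured neuropilin ligands, co-receptors and adaptors none was called, 1 had an unadjusted p under 0.05, and 1 was called lower with the block. That was Kdr, a VEGF receptor, at 26.9, 11.8 and 29.0 in CTLA-4 KO, against 56.2, 72.3 and 68.3 in wild type, where all CTLA-4 KO arrays lay under the filter floor (limma adjusted p = 0.1, and 0.0401 with the block). Sema4a, the neuropilin ligand studied on immune cells, had 1345 ± 175 in CTLA-4 KO and 1432 ± 243 in wild type (limma adjusted p = 0.83). Of 9 measured integrins and partners of CD103 none was called, 2 had an unadjusted p under 0.05, and with the block 1 was called higher and 1 lower. For both lists the background was 1989 of all 11990 genes with an unadjusted limma p under 0.05. Itgb7, the chain that pairs with the Itgae product, had 5180, 5212 and 5068 in CTLA-4 KO, against 3546, 4246 and 3849 in wild type (log2 difference 0.41, limma adjusted p = 0.0711, and 0.0138 with the block). Itga4, the other alpha chain that pairs with beta-7, had 2555 ± 77.0 in CTLA-4 KO and 3281 ± 412 in wild type (limma adjusted p = 0.168, and 0.0333 with the block).

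By their brightest probe sets all 6 measured genes of folate receptors, transport and use had positive differences, as did 6024 of all 11990 genes. Their median was 0.26, and none was called. Among these 6 genes 1 had an unadjusted p under 0.05, against 1989 of all 11990 genes, and was called higher with the block. That was the mitochondrial serine hydroxymethyltransferase gene Shmt2, at 1996 ± 99.8 in CTLA-4 KO and 1396 ± 211 in wild type (limma adjusted p = 0.0829, and 0.014 with the block). Its log2 difference was 0.52, and its other measured probe sets had 0.28, 0.26 and 0.20. Mthfd1 had 0.20 on its brightest probe set and 0.45 and −0.04 on its others. The folate receptor gene Folr1 had 50.8 in CTLA-4 KO and 46.4 in wild type, and Folr2 and Izumo1 did not pass the filter. Pcsk1n, which encodes the precursor of PEN, did not pass it either. Pcsk1, which encodes a convertase that cleaves prohormones, was the 1 measured gene around Gpr83 and was dim and overlapping, at 43.2 ± 31.4 in CTLA-4 KO and 38.8 ± 1.99 in wild type (limma adjusted p = 0.949).

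**Figure D5:**
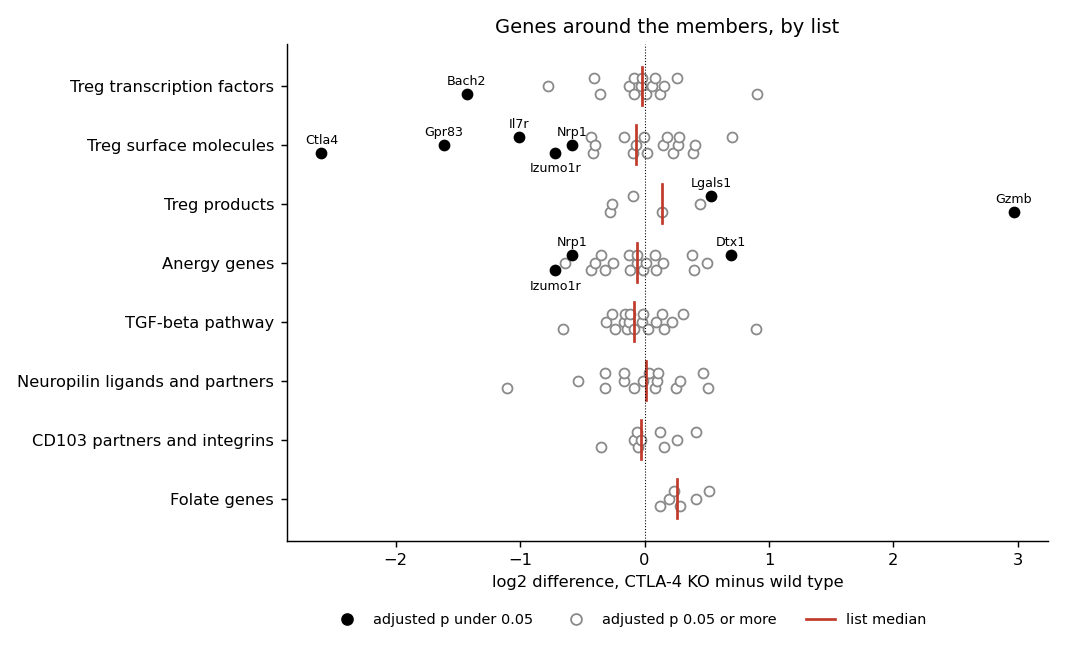
Log2 difference, CTLA-4 KO minus wild type, of each measured gene in 8 lists around the members, each gene read by its brightest probe set, with called genes filled and named and list medians in red. Called genes stand apart from list medians that lie between −0.09 and 0.26.

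The sorted cells carried T cell markers. All 9 measured CD4 T cell markers were bright and none was called (2 had an unadjusted p under 0.05, and 2 were called lower with the block), with Cd4 at 5473 ± 461 in CTLA-4 KO and 5148 ± 241 in wild type. Of 4 measured myeloid markers, 4 of dendritic cells, 2 of CD8 T cells and 1 of natural killer cells none was called, with 1 unadjusted p under 0.05, that of Zbtb46. The background was again 1989 of all 11990 genes with an unadjusted limma p under 0.05. The summed intensity ranged from 217 to 399 in CTLA-4 KO and 314 to 339 in wild type for myeloid cells, and from 174 to 207 in CTLA-4 KO and 208 to 312 in wild type for dendritic cells, whose CD103+ and Nrp1+ subsets share Itgae and Nrp1. It ranged from 315 to 513 in CTLA-4 KO and 262 to 422 in wild type for CD8 T cells, and from 37.3 to 58.0 in CTLA-4 KO and 10.3 to 88.3 in wild type for the natural killer marker. The dendritic sums were lower in CTLA-4 KO without overlap, by a narrow margin. All 4 dendritic markers were dim, with group means from 35.4 to 90.0. Of the 4 measured B cell markers, with sums of 10712 to 11089 in CTLA-4 KO and 8643 to 11272 in wild type, Ighm was bright at 10709 in CTLA-4 KO and 9607 in wild type. Cd79b had 91.5 in CTLA-4 KO and 110 in wild type, and Cd79a and Pax5 did not pass the filter. The part of other cells in the results on the members was not tested.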

How the data were processed

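Total RNA (2 µg) from sorted T cells went onto Affymetrix arrays, as the labels' protocols state. The authors deposited 1 intensity per probe set and array (45101 probe sets, 6 arrays, all columns used), and Partek and MAS5 are named in the submitters' processing notes, with no versions. These deposited intensities are on a linear scale, and each array had the same mean, 500.003, after trimming 2% at each end. No build is given in the sources used here.

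Values became log2(intensity + 16). The 64 control probe sets were left out, and those whose mean log2 value reached the 40th percentile (35.4 in intensity) were kept, 27022 in all. The models used R 4.3.3 and limma 3.58.1 (2-sided, with moderated variances that follow intensity), adjusted by Benjamini-Hochberg at 0.05, and tested on simulated data. The titles call the samples biological replicates without naming animals or pools, so a p-value measures no more than the spread among these samples. The donors of pair 2 appear to differ in sex from the others, so that spread is not technical alone. The titles share replicate numbers. After group means were removed, arrays of the same number correlated at 0.371 (1), 0.24 (2) and 0.254 (3), each over 0.1, so the numbers were taken as pairs and the block entered as an alternative. All other fits, those with arrays left out or a ratio as a term among them, had no block and so did not use the pairs.

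The annotation gave 1 gene for 34958 probe sets, several for 932 and none for 9211. By gene ID 34754 were found in RefSeq's table (GRCm38.p6), which served for names, chromosomes and gene order. Promoters are RefSeq's. No protein sequence was used here. A gene was read by its probe set of highest mean. Named were Ctla4, all member probe sets, up to 4 called genes per list with the smallest p, marker, ligand and partner genes, chromosomal neighbours and the 3 most similar profiles. Il7r, Ikzf4, Ikzf2, Il2ra, Nt5e, Cblb, Prdm1, Pdcd1 and Nr4a1 are named outside it, having been picked once their values had been seen. The members and lists were chosen with earlier results of these data known. Alternatives were the dimness filter, pseudocount, normalization, trend, array weights, the replicate block, 5' to 3' ratios as terms, pairs 1 and 3 alone and leaving out each array.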

Additional observations from a re-analysis of the deposited data

How the results depend on the processing

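Across 18 alternative settings no called member changed direction. Gpr83 (brightest probe set) lost its call without the intensity trend (limma adjusted p = 0.0664 at a log2 difference of −1.61) and with pairs 1 and 3 alone (0.0741 at −1.67), and its differences lay between −1.76 and −1.39 when each array was left out. Nrp1 (brightest probe set) lost its call under median centring (0.0527 at −0.49), without the trend (0.147 at −0.58), with the Actb ratio as a term (0.117 at −0.65) and with pairs 1 and 3 alone (0.111 at −0.62), and ranged from −0.62 to −0.54 with arrays left out. Izumo1r lost it without the trend (0.137 at −0.72), with the Actb ratio as a term (0.155 at −0.78) and with pairs 1 and 3 alone (0.201 at −0.66), and ranged from −0.81 to −0.67 with arrays left out. Foxp3 and Itgae were called in none, at unadjusted limma p of 0.269 and 0.259 in the fit without a block, and could not be fitted with the filter at the 60th percentile, which removed them. Lrrc32 gave no value. Member probe sets called, 4 of 10, became 1 without the trend, 7 with the replicate block, 2 with the Actb ratio as a term and 1 with pairs 1 and 3 alone, and 2 to 5 with arrays left out, with 2 without wild type replicate 3.

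All called probe sets, 339, became 111 with no filter on dim signals, 20 without the trend, 521 with array weights, 2341 with the replicate block (1044 higher and 1297 lower), 22 with the Actb ratio as a term (9 higher and 13 lower) and 46 with pairs 1 and 3 alone, and 62 to 217 with arrays left out. The share called higher was 62.5% as deposited and 81.5% under median centring. The causes were not tested, apart from the fewer arrays fitted in some of these. Faint signal limits Foxp3 and Itgae.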
